A study of Mus musculus with 16 samples.

Results

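Transcripts of 43 genes of mitosis and the spindle checkpoint were followed on 16 Affymetrix Mouse Gene ST arrays of cultured mouse dendritic cell (DC) progenitors. The genes were listed by name for their known roles in cell division, with earlier results of these data known. Each was read from the probe set that the annotation table assigns to its symbol alone. A probe set of its own was found for 42 of them, out of 19938 genes so measured, and *Ccnb1* (cyclin B1) was left out because no probe set carried its symbol. The cells were monocyte and dendritic progenitors (MDPs), which give rise to monocytes and DCs, and common dendritic progenitors (CDPs), which give rise to DCs. Both were sorted from the bone marrow of wild-type (WT) or IkL/L mice of 6 to 9 weeks of age, carried CD45.2 and were cultured for 24 h with supporting CD45.1+ WT bone marrow cells and Flt3L. IkL/L mice are homozygous for a hypomorphic allele of *Ikzf1*, so that their cells hold little functional Ikaros, a zinc finger transcription factor. Cultures received vehicle (DMSO) or a γ-secretase inhibitor (GSI, Compound E) at 5 µM, after which the CD45.2+ cells were sorted and their RNA amplified. This gave 8 groups of 2 arrays: vehicle-treated WT MDPs, GSI-treated WT MDPs, vehicle-treated WT CDPs, GSI-treated WT CDPs, and the same 4 groups of IkL/L cells. MDP and CDP name the cells put into culture, and the stage of the cells recovered was not measured on these arrays. The allele is present in every cell of the IkL/L mice throughout life, and the supporting cells were WT in all 8 groups.

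Cells pass through mitosis when Cdk1, bound to A- and B-type cyclins, phosphorylates proteins that condense the chromosomes and build the spindle. The spindle checkpoint holds the anaphase-promoting complex (APC/C) inactive until every kinetochore is attached to microtubules, and the APC/C with Cdc20 then marks cyclin B and securin for destruction. Transcripts of these proteins rise together in G2 and mitosis. Their genes are controlled by NF-Y, which binds CCAAT boxes, and by the DREAM and MMB-FOXM1 complexes, which bind CHR elements near the transcription start. DC progenitors divide as they differentiate, while mature DCs and mature neutrophils are largely outside the cell cycle.

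Promoters of many of these genes carry the sequences that these complexes are known to bind, and 6 are shown. They were taken in order of adjusted p among genes called between IkL/L and WT CDPs, with vehicle or over both treatments, and not by sequence. Each line gives 120 bases before the RefSeq start of the gene (build GRCm38.p6, 5′ to 3′ on the gene's strand). Capitals mark the NF-Y box, searched as CCAAT on either strand, and the CHR, searched as TTTGAA and in its other form as TTCGAA, also on either strand. Windows that lie within an annotated gene were passed over.
Arhgap19, chr19:41802085-41802204, - strand: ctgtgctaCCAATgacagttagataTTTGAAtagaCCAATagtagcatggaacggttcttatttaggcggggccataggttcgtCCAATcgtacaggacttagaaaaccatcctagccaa
Ccnb2, chr9:70421555-70421674, - strand: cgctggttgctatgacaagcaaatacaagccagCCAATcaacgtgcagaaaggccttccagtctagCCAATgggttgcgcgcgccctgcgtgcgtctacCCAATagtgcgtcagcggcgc
Bub1, chr2:127831860-127831979, - strand: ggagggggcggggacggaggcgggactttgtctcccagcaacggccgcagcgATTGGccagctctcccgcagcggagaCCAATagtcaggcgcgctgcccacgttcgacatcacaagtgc
Mad2l1, chr6:66535101-66535220, + strand: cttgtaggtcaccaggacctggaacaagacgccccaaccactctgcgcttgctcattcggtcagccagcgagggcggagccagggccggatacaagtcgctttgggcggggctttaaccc
Ube2c, chr2:164769809-164769928, + strand: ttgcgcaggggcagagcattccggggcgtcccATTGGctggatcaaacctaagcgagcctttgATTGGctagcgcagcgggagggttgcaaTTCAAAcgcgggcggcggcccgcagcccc
Cdc20, chr4:118437344-118437463, - strand: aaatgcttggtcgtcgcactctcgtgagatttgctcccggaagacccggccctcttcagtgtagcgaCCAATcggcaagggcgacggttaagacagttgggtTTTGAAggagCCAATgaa
*Arhgap19*, *Ube2c* and *Cdc20* hold NF-Y boxes and a CHR in these bases. *Ccnb2* holds 3 NF-Y boxes at even spacing there, *Bub1* holds 2 on opposite strands, and *Mad2l1* holds no match. Outside the printed bases, CHR matches began at positions -167 and 5 relative to the start for *Ccnb2*, and at 15 for *Bub1*. In all, 33 of the 42 genes had an entry in the RefSeq promoter table, with 35 promoters. An NF-Y box, on either strand, lay in the 250 bases before the start of 77.1% of them, against 34.5% of the promoters of all genes tested on the arrays, and 2 or more lay in 51.4% against 11.1%. A CHR was found in 45.7% against 14.8%. Of windows of 300 bases that reach 50 bases past the start, chosen after the positions were seen, 82.9% held a CHR against 16.5%. Both elements lay in 74.3% of these longer windows against 6.56% for all genes tested. An E2F site, searched on either strand as TTTGGCGC and in its other form as TTTCGCGC, was found in 2.86% against 0.913%, in the 250 bases. The matches are letters in a window and not measured binding.

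**Figure D1:**
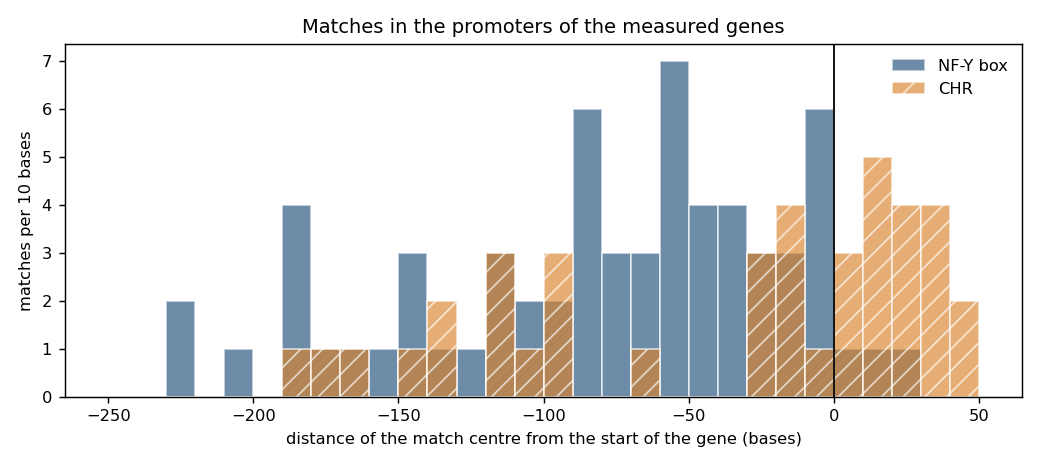
Number of NF-Y box (blue) and CHR (orange, hatched) matches per 10 bases in the 35 promoters of the measured genes, by distance of the match centre from the start (0, vertical line). NF-Y boxes lie mostly in the stretch nearest before the start, and the CHR matches are densest around and just after it.

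Values below are log2 RMA signals, listed in the order vehicle array 1, vehicle array 2, GSI array 1 and GSI array 2, and differences are IkL/L minus WT on that scale unless stated. Tests are from limma, in 1 fit of all 16 arrays, with p values adjusted over the 19938 genes by the Benjamini-Hochberg method and a threshold of 0.05. Median signals of the arrays ran from 4.52 to 4.65, and the lowest Pearson correlation between arrays of a group, taken over genes as a description, was 0.983. Some arrays stood apart for the mitosis genes. Array 1 of vehicle-treated WT CDPs was the lowest of the 4 WT CDP arrays for all 42 genes. Array 1 of GSI-treated WT MDPs was the lowest of the 8 MDP arrays for 17 genes, and array 1 of vehicle-treated IkL/L MDPs for 10. *Ikzf1* itself had a difference of -0.30 in CDPs (adjusted p = 0.133) and -0.50 in MDPs (adjusted p = 0.0545) over both treatments, and the array does not measure the protein. *Csf1r* (CD115), one of the surface proteins of the sort before culture, ran from 9.62 to 10.88 over the 16 arrays. *Kit* (CD117) ran from 4.85 to 6.64 in WT CDPs and from 6.69 to 7.61 in IkL/L CDPs, without overlap, and from 5.94 to 8.05 in MDPs, and its difference in CDPs of 1.29 did not pass the test (adjusted p = 0.185). *Flt3* (CD135) ran from 7.71 to 9.13 in WT CDPs, from 8.57 to 9.60 in IkL/L CDPs and from 6.36 to 7.76 in MDPs (difference in CDPs 0.68, adjusted p = 0.35). With *Ptprc* (CD45), 0 of these 4 genes were called in CDPs, 1 had an unadjusted p under 0.05, and all 4 had positive differences, opposite in sign to the mitosis genes, and their part in the results below was not tested.

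Genes of mitosis were lower in IkL/L CDPs than in WT CDPs, with vehicle and with GSI. Over both treatments 35 of the 42 genes were lower at an adjusted p under 0.05, or 83.3% of them, and 0 were higher, while 1.92% of all genes tested were called lower. All 42 had a negative difference, from -1.68 for *Kif11* to -0.90 for *Birc5*, and the median was -1.28 against -0.02 over all genes. In 38 genes, called or not, the estimated level was more than 2-fold lower. The 4 IkL/L CDP arrays lay below the 4 WT CDP arrays for 41 of the 42 genes, where 5.74% of all genes tested did so, and the exception was *Mki67*. For 25 genes they lay below all 12 other arrays, against 2.08% of all genes. As the genes were listed with earlier results of these data known, these shares describe the list and do not test it. Of the 35 calls 26 held without each of the 16 arrays in turn, and the count ran from 26 to 39. The median log2 signal over the 42 genes was 6.99, 7.25, 6.87 and 7.15 in the IkL/L CDP arrays, and 7.89, 8.53, 8.48 and 8.62 in WT CDPs. In MDPs it was 8.07, 8.50, 7.93 and 8.49 in WT cells and 8.05, 8.31, 8.13 and 7.72 in IkL/L cells, so that the 4 IkL/L CDP arrays were the lowest of the 16. In bulk RNA fewer dividing cells and less RNA of these genes per cell cannot be told apart.

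**Figure D2:**
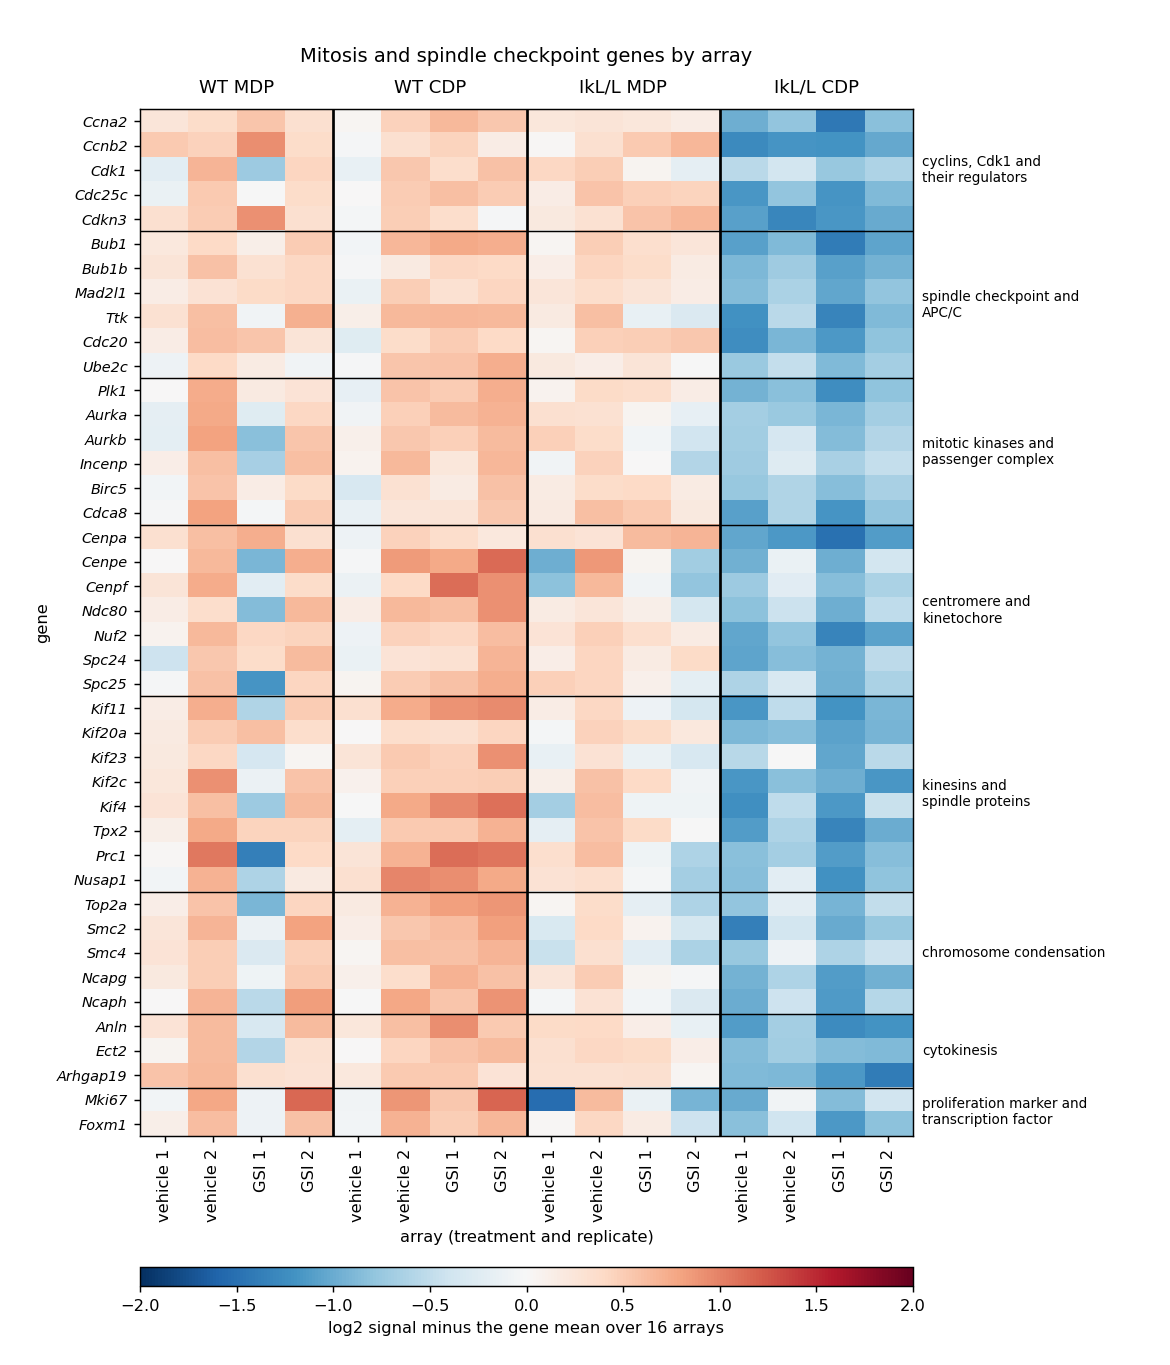
Log2 signal of the 42 genes (rows, by role) in the 16 arrays (columns, by cells, treatment and replicate), as the difference from the gene's mean over all arrays (blue lower, red higher). The 4 IkL/L CDP columns are blue in nearly every row, and single arrays such as GSI array 1 of WT MDPs are blue in some rows only.

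Among cyclins, Cdk1 and their regulators 4 of 5 genes were lower in IkL/L CDPs, and *Cdk1* was not called. *Ccna2*, cyclin A2 (probe set 10497831), which partners Cdk2 in S phase and Cdk1 at entry into mitosis, had log2 signals of 10.02, 10.44, 10.63 and 10.53 in WT CDPs and of 9.01, 9.20, 8.56 and 9.15 in IkL/L CDPs. In MDPs *Ccna2* had 10.22, 10.36, 10.54 and 10.31 in WT cells and 10.21, 10.25, 10.21 and 10.13 in IkL/L cells. *Ccna2* in IkL/L CDPs stayed under the lowest of the other 12 arrays in each array, and the level was 2.68-fold lower than in WT CDPs (log2 difference -1.42, standard error 0.13, adjusted p = 1.60e-04). *Ccnb2*, cyclin B2 (probe set 10594774), a mitotic partner of Cdk1, had log2 signals of 9.50, 9.83, 9.96 and 9.67 in WT CDPs and of 8.24, 8.33, 8.32 and 8.50 in IkL/L CDPs. In MDPs *Ccnb2* had 10.04, 9.97, 10.44 and 9.88 in WT cells and 9.54, 9.83, 10.04 and 10.18 in IkL/L cells. For *Ccnb2* the difference from WT CDPs was 2.63-fold (log2 difference -1.40, standard error 0.13, adjusted p = 1.75e-04), with the 4 IkL/L CDP arrays below every other array. *Cdc25c*, the phosphatase that removes inhibitory phosphates from Cdk1, had log2 signals of 5.67, 6.18, 6.27 and 6.18 in WT CDPs and of 4.50, 4.88, 4.48 and 4.78 in IkL/L CDPs. In MDPs *Cdc25c* had 5.53, 6.19, 5.66 and 6.03 in WT cells and 5.82, 6.24, 6.14 and 6.11 in IkL/L cells. *Cdc25c* was thus 2.67-fold lower in IkL/L CDPs (log2 difference -1.42, standard error 0.18, adjusted p = 0.00123), and their 4 arrays lay below the other 12. *Cdkn3*, a phosphatase of cyclin-dependent kinases, had log2 signals of 8.48, 9.01, 8.88 and 8.50 in WT CDPs and of 7.43, 7.22, 7.36 and 7.51 in IkL/L CDPs. In MDPs *Cdkn3* had 8.84, 9.03, 9.43 and 8.85 in WT cells and 8.71, 8.82, 9.10 and 9.19 in IkL/L cells. *Cdkn3* in IkL/L CDPs stayed under the lowest of the other 12 arrays in each array, and the level was 2.53-fold lower than in WT CDPs (log2 difference -1.34, standard error 0.15, adjusted p = 6.18e-04). *Cdk1*, the kinase at the center of mitotic entry, had 8.36, 9.04, 8.86 and 9.09 in WT CDPs and 7.97, 8.13, 7.75 and 7.88 in IkL/L CDPs. In MDPs *Cdk1* ran from 7.77, in array 1 of GSI-treated WT cells, to 9.19. Its CDP values did not overlap between genotypes, but the difference of -0.91 (standard error 0.26) did not pass the test (adjusted p = 0.0868).

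All 6 genes of the spindle checkpoint and the APC/C were lower in IkL/L CDPs, by 2.14-fold to 3.09-fold, and each held its call without any 1 array. *Bub1*, a checkpoint kinase of the kinetochore (probe set 10487480), had log2 signals of 7.84, 8.55, 8.64 and 8.62 in WT CDPs and of 6.81, 7.01, 6.49 and 6.83 in IkL/L CDPs. In MDPs *Bub1* had 8.10, 8.28, 8.01 and 8.39 in WT cells and 7.93, 8.38, 8.22 and 8.13 in IkL/L cells. For *Bub1* the difference from WT CDPs was 3.09-fold (log2 difference -1.63, standard error 0.16, adjusted p = 2.98e-04), with the 4 IkL/L CDP arrays below every other array. *Bub1b*, which encodes BubR1 of the mitotic checkpoint complex, had log2 signals of 8.38, 8.58, 8.82 and 8.80 in WT CDPs and of 7.5, 7.69, 7.31 and 7.45 in IkL/L CDPs. In MDPs *Bub1b* had 8.65, 8.98, 8.71 and 8.82 in WT cells and 8.53, 8.83, 8.77 and 8.56 in IkL/L cells. *Bub1b* was thus 2.24-fold lower in IkL/L CDPs (log2 difference -1.16, standard error 0.10, adjusted p = 9.62e-05), and their 4 arrays lay below the other 12. *Mad2l1*, which encodes Mad2, the inhibitor that binds Cdc20, had log2 signals of 9.22, 9.84, 9.66 and 9.78 in WT CDPs and of 8.49, 8.72, 8.32 and 8.57 in IkL/L CDPs. In MDPs *Mad2l1* had 9.51, 9.64, 9.73 and 9.77 in WT cells and 9.60, 9.70, 9.61 and 9.51 in IkL/L cells. *Mad2l1* in IkL/L CDPs stayed under the lowest of the other 12 arrays in each array, and the level was 2.14-fold lower than in WT CDPs (log2 difference -1.10, standard error 0.12, adjusted p = 5.80e-04). *Ttk*, the kinase Mps1 that starts checkpoint signaling, had log2 signals of 6.42, 6.95, 6.97 and 6.96 in WT CDPs and of 5.10, 5.77, 4.98 and 5.42 in IkL/L CDPs. In MDPs *Ttk* had 6.61, 6.91, 6.23 and 7.01 in WT cells and 6.48, 6.90, 6.16 and 6.01 in IkL/L cells. For *Ttk* the difference from WT CDPs was 2.84-fold (log2 difference -1.51, standard error 0.21, adjusted p = 0.00231), with the 4 IkL/L CDP arrays below every other array. *Cdc20*, the APC/C activator that the checkpoint restrains, had log2 signals of 7.41, 8.01, 8.15 and 8.04 in WT CDPs and of 6.4, 6.73, 6.50 and 6.85 in IkL/L CDPs. In MDPs *Cdc20* had 7.79, 8.26, 8.20 and 7.91 in WT cells and 7.68, 8.12, 8.14 and 8.19 in IkL/L cells. *Cdc20* was thus 2.43-fold lower in IkL/L CDPs (log2 difference -1.28, standard error 0.17, adjusted p = 0.00157), and their 4 arrays lay below the other 12. *Ube2c*, the ubiquitin-conjugating enzyme of the APC/C, had log2 signals of 8.19, 8.78, 8.79 and 8.94 in WT CDPs and of 7.48, 7.74, 7.33 and 7.54 in IkL/L CDPs. In MDPs *Ube2c* had 8.11, 8.61, 8.39 and 8.15 in WT cells and 8.42, 8.35, 8.48 and 8.21 in IkL/L cells. *Ube2c* in IkL/L CDPs stayed under the lowest of the other 12 arrays in each array, and the level was 2.22-fold lower than in WT CDPs (log2 difference -1.15, standard error 0.15, adjusted p = 0.0015). The promoters of *Bub1*, *Cdc20* and *Ube2c* printed above hold NF-Y boxes, and that of *Mad2l1* holds no match. Over both treatments in CDPs the median difference was -1.34 for 15 genes with a CHR in the 250 bases and -1.31 for 18 without. Some of the 18, such as *Bub1*, hold a CHR just past the start. In the windows of 300 bases the median was -1.34 for 27 genes with a CHR and -1.31 for 6 without. The part of these sequences in the differences was not tested.

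Of 6 mitotic kinases and passenger proteins 4 were lower in IkL/L CDPs, and *Aurkb* and *Incenp* of the passenger complex were not called. This complex of Aurora B, Incenp, survivin and borealin corrects faulty attachments at the centromere. *Plk1*, the Polo-like kinase of spindle poles, kinetochores and cytokinesis, had log2 signals of 7.73, 8.47, 8.40 and 8.62 in WT CDPs and of 6.95, 7.06, 6.66 and 7.09 in IkL/L CDPs. In MDPs *Plk1* had 7.91, 8.64, 8.07 and 8.17 in WT cells and 7.96, 8.28, 8.25 and 8.05 in IkL/L cells. For *Plk1* the difference from WT CDPs was 2.58-fold (log2 difference -1.37, standard error 0.19, adjusted p = 0.00223), with the 4 IkL/L CDP arrays below every other array. *Aurka*, Aurora A, the kinase of centrosomes and spindle assembly, had log2 signals of 7.68, 8.23, 8.38 and 8.45 in WT CDPs and of 7.07, 7.0, 6.84 and 7.07 in IkL/L CDPs. In MDPs *Aurka* had 7.57, 8.50, 7.51 and 8.17 in WT cells and 8.07, 8.05, 7.81 and 7.59 in IkL/L cells. *Aurka* was thus 2.28-fold lower in IkL/L CDPs (log2 difference -1.19, standard error 0.21, adjusted p = 0.00801), and their 4 arrays lay below the other 12. *Birc5*, survivin, had log2 signals of 9.24, 9.87, 9.73 and 10.15 in WT CDPs and of 8.81, 8.97, 8.71 and 8.92 in IkL/L CDPs. In MDPs *Birc5* had 9.52, 10.13, 9.72 and 9.95 in WT cells and 9.73, 9.93, 9.97 and 9.73 in IkL/L cells. *Birc5* in IkL/L CDPs stayed under the lowest of the other 12 arrays in each array, and the level was 1.86-fold lower than in WT CDPs (log2 difference -0.90, standard error 0.17, adjusted p = 0.0131). *Cdca8*, borealin, had log2 signals of 8.27, 8.66, 8.68 and 8.96 in WT CDPs and of 7.34, 7.82, 7.24 and 7.64 in IkL/L CDPs. In MDPs *Cdca8* had 8.39, 9.23, 8.38 and 8.93 in WT cells and 8.60, 9.03, 8.95 and 8.62 in IkL/L cells. For *Cdca8* the difference from WT CDPs was 2.19-fold (log2 difference -1.13, standard error 0.22, adjusted p = 0.0137), with the 4 IkL/L CDP arrays below every other array. *Birc5* lost its call without array 1 of IkL/L CDPs, with vehicle (adjusted p = 0.0542) or GSI (0.0543), and *Cdca8* without these (0.0595 and 0.0587) or array 2 of vehicle-treated WT CDPs (0.0606). *Aurkb*, Aurora B, ran from 7.16 to 7.70 in IkL/L CDPs and from 8.13 to 8.66 in WT CDPs (difference -1.05, adjusted p = 0.0737). *Incenp*, the scaffold of the complex, ran from 6.85 to 7.30 and from 7.63 to 8.23 (difference -0.93, adjusted p = 0.106).

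Of 7 genes of the centromere and kinetochore 4 were lower, and *Cenpe*, *Cenpf* and *Spc25* did not pass the test. Ndc80, Nuf2, Spc24 and Spc25 form the complex that holds microtubules at the kinetochore. *Cenpa*, the histone H3 variant that marks the centromere, had log2 signals of 8.85, 9.40, 9.30 and 9.15 in WT CDPs and of 7.90, 7.79, 7.45 and 7.83 in IkL/L CDPs. In MDPs *Cenpa* had 9.26, 9.55, 9.67 and 9.27 in WT cells and 9.27, 9.22, 9.58 and 9.62 in IkL/L cells. *Cenpa* was thus 2.70-fold lower in IkL/L CDPs (log2 difference -1.43, standard error 0.14, adjusted p = 2.08e-04), and their 4 arrays lay below the other 12. *Nuf2*, a microtubule-binding subunit of the Ndc80 complex, had log2 signals of 7.95, 8.52, 8.46 and 8.67 in WT CDPs and of 7.02, 7.27, 6.74 and 6.98 in IkL/L CDPs. In MDPs *Nuf2* had 8.12, 8.70, 8.46 and 8.50 in WT cells and 8.32, 8.53, 8.39 and 8.22 in IkL/L cells. *Nuf2* in IkL/L CDPs stayed under the lowest of the other 12 arrays in each array, and the level was 2.63-fold lower than in WT CDPs (log2 difference -1.40, standard error 0.15, adjusted p = 5.29e-04). *Ndc80*, the subunit that gives the complex its name, had log2 signals of 8.16, 8.66, 8.62 and 8.93 in WT CDPs and of 7.19, 7.58, 7.03 and 7.5 in IkL/L CDPs. In MDPs *Ndc80* had 8.16, 8.36, 7.14 and 8.66 in WT cells and 8.18, 8.26, 8.13 and 7.66 in IkL/L cells. The *Ndc80* values of IkL/L and WT CDPs did not overlap and differed 2.41-fold (log2 difference -1.27, standard error 0.28, adjusted p = 0.0284), but array 1 of GSI-treated WT MDPs reached down to the IkL/L CDP values. *Spc24*, a subunit on its inner, kinetochore-facing side, had log2 signals of 7.75, 8.16, 8.18 and 8.56 in WT CDPs and of 6.83, 7.03, 6.93 and 7.36 in IkL/L CDPs. In MDPs *Spc24* had 7.47, 8.42, 8.25 and 8.51 in WT cells and 8.02, 8.31, 8.05 and 8.27 in IkL/L cells. *Spc24* was thus 2.18-fold lower in IkL/L CDPs (log2 difference -1.13, standard error 0.20, adjusted p = 0.00932), and their 4 arrays lay below the other 12. *Ndc80* lost its call without each of 7 arrays, all but array 1 of vehicle-treated WT CDPs among the 8 CDP arrays (adjusted p up to 0.111). *Spc25*, the partner of Spc24, ran from 6.11 to 6.76 in IkL/L CDPs and from 7.13 to 7.80 in WT CDPs (difference -1.10, adjusted p = 0.0646). *Cenpf*, a large kinetochore protein, ran from 5.00 to 5.62 in IkL/L CDPs and from 5.73 to 6.97 in WT CDPs (difference -1.19, adjusted p = 0.0554). *Cenpe*, the kinesin of the kinetochore, ran from 5.48 to 6.32 in IkL/L CDPs and from 6.42 to 7.58 in WT CDPs (difference -1.28, adjusted p = 0.19). For all 3 the CDP arrays did not overlap between genotypes.

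All 8 kinesins and spindle proteins were lower in IkL/L CDPs, and the largest difference of the 42 genes, that of *Kif11*, was among them. *Kif11*, the kinesin Eg5 that pushes spindle poles apart (probe set 10462796), had log2 signals of 8.91, 9.33, 9.49 and 9.54 in WT CDPs and of 7.42, 8.08, 7.40 and 7.67 in IkL/L CDPs. In MDPs *Kif11* had 8.73, 9.31, 7.98 and 9.09 in WT cells and 8.73, 9.01, 8.49 and 8.24 in IkL/L cells. The *Kif11* values of IkL/L and WT CDPs did not overlap and differed 3.20-fold (log2 difference -1.68, standard error 0.24, adjusted p = 0.0028), but array 1 of GSI-treated WT MDPs reached down to the IkL/L CDP values. *Kif2c*, a kinesin that takes microtubules apart at their ends, had log2 signals of 6.82, 7.21, 7.21 and 7.23 in WT CDPs and of 5.58, 5.91, 5.76 and 5.58 in IkL/L CDPs. In MDPs *Kif2c* had 6.97, 7.66, 6.62 and 7.31 in WT cells and 6.86, 7.32, 7.14 and 6.67 in IkL/L cells. For *Kif2c* the difference from WT CDPs was 2.66-fold (log2 difference -1.41, standard error 0.20, adjusted p = 0.00277), with the 4 IkL/L CDP arrays below every other array. *Kif20a*, a kinesin of the central spindle in cytokinesis, had log2 signals of 7.29, 7.63, 7.59 and 7.70 in WT CDPs and of 6.37, 6.43, 6.20 and 6.34 in IkL/L CDPs. In MDPs *Kif20a* had 7.45, 7.79, 7.88 and 7.62 in WT cells and 7.24, 7.73, 7.66 and 7.48 in IkL/L cells. *Kif20a* was thus 2.33-fold lower in IkL/L CDPs (log2 difference -1.22, standard error 0.13, adjusted p = 3.55e-04), and their 4 arrays lay below the other 12. *Kif23*, the kinesin subunit of centralspindlin, had log2 signals of 9.03, 9.29, 9.23 and 9.68 in WT CDPs and of 8.22, 8.77, 7.74 and 8.24 in IkL/L CDPs. In MDPs *Kif23* had 8.97, 9.19, 8.43 and 8.81 in WT cells and 8.62, 9.06, 8.64 and 8.45 in IkL/L cells. *Kif23* was 2.09-fold lower in IkL/L CDPs (log2 difference -1.06, standard error 0.18, adjusted p = 0.00617), with no overlap between the CDP arrays, while array 1 of GSI-treated WT MDPs, array 1 of vehicle-treated IkL/L MDPs and both arrays of GSI-treated IkL/L MDPs lay within or below the IkL/L CDP values. *Kif4*, a chromosome-bound kinesin, had log2 signals of 7.14, 7.91, 8.12 and 8.25 in WT CDPs and of 5.92, 6.65, 6.01 and 6.70 in IkL/L CDPs. In MDPs *Kif4* had 7.42, 7.75, 6.43 and 7.78 in WT cells and 6.47, 7.77, 7.06 and 7.07 in IkL/L cells. The *Kif4* values of IkL/L and WT CDPs did not overlap and differed 2.89-fold (log2 difference -1.53, standard error 0.36, adjusted p = 0.0346), but array 1 of GSI-treated WT MDPs and array 1 of vehicle-treated IkL/L MDPs reached down to the IkL/L CDP values. *Tpx2*, which activates Aurora A and nucleates spindle microtubules, had log2 signals of 7.54, 8.26, 8.27 and 8.44 in WT CDPs and of 6.62, 7.12, 6.42 and 6.75 in IkL/L CDPs. In MDPs *Tpx2* had 7.86, 8.50, 8.18 and 8.18 in WT cells and 7.56, 8.31, 8.12 and 7.74 in IkL/L cells. *Tpx2* was thus 2.64-fold lower in IkL/L CDPs (log2 difference -1.40, standard error 0.22, adjusted p = 0.00495), and their 4 arrays lay below the other 12. *Prc1*, which bundles antiparallel microtubules of the central spindle, had log2 signals of 7.27, 7.71, 8.13 and 8.08 in WT CDPs and of 6.18, 6.34, 5.90 and 6.16 in IkL/L CDPs. In MDPs *Prc1* had 7.03, 8.07, 5.64 and 7.41 in WT cells and 7.35, 7.63, 6.93 and 6.4 in IkL/L cells. The *Prc1* values of IkL/L and WT CDPs did not overlap and differed 3.15-fold (log2 difference -1.65, standard error 0.34, adjusted p = 0.0202), but array 1 of GSI-treated WT MDPs reached down to the IkL/L CDP values. *Nusap1*, a microtubule-bundling protein of the spindle, had log2 signals of 8.72, 9.37, 9.32 and 9.15 in WT CDPs and of 7.54, 8.18, 7.18 and 7.58 in IkL/L CDPs. In MDPs *Nusap1* had 8.33, 9.09, 7.78 and 8.57 in WT cells and 8.68, 8.73, 8.35 and 7.71 in IkL/L cells. *Nusap1* was 2.88-fold lower in IkL/L CDPs (log2 difference -1.52, standard error 0.25, adjusted p = 0.00626), with no overlap between the CDP arrays, while array 1 of GSI-treated WT MDPs and array 2 of GSI-treated IkL/L MDPs lay within or below the IkL/L CDP values. Calls of *Kif4* and *Prc1* were lost without some arrays, *Kif4* without any of 11 (adjusted p up to 0.135) and *Prc1* without 6 CDP arrays (up to 0.0803).

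All 5 genes of chromosome condensation were lower, but only *Ncapg* held its call without each array in turn. *Top2a*, topoisomerase IIα, which untangles sister DNAs, had log2 signals of 9.76, 10.28, 10.41 and 10.47 in WT CDPs and of 8.79, 9.38, 8.66 and 9.10 in IkL/L CDPs. In MDPs *Top2a* had 9.72, 10.16, 8.67 and 10.01 in WT cells and 9.62, 9.95, 9.41 and 8.97 in IkL/L cells. The *Top2a* values of IkL/L and WT CDPs did not overlap and differed 2.37-fold (log2 difference -1.25, standard error 0.28, adjusted p = 0.0272), but array 1 of GSI-treated WT MDPs and array 2 of GSI-treated IkL/L MDPs reached down to the IkL/L CDP values. *Smc2*, a core ATPase of both condensins, had log2 signals of 8.70, 9.12, 9.19 and 9.39 in WT CDPs and of 7.20, 8.20, 7.57 and 7.81 in IkL/L CDPs. In MDPs *Smc2* had 8.81, 9.26, 8.46 and 9.38 in WT cells and 8.27, 8.97, 8.64 and 8.23 in IkL/L cells. *Smc2* in IkL/L CDPs stayed under the lowest of the other 12 arrays in each array, and the level was 2.64-fold lower than in WT CDPs (log2 difference -1.40, standard error 0.27, adjusted p = 0.0138). *Smc4*, the other core ATPase, had log2 signals of 9.41, 9.98, 9.96 and 10.06 in WT CDPs and of 8.62, 9.28, 8.76 and 8.95 in IkL/L CDPs. In MDPs *Smc4* had 9.65, 9.86, 9.08 and 9.85 in WT cells and 8.93, 9.70, 9.16 and 8.74 in IkL/L cells. The *Smc4* values of IkL/L and WT CDPs did not overlap and differed 1.94-fold (log2 difference -0.95, standard error 0.23, adjusted p = 0.0442), but array 1 of GSI-treated WT MDPs, array 1 of vehicle-treated IkL/L MDPs and both arrays of GSI-treated IkL/L MDPs reached down to the IkL/L CDP values. *Ncapg*, a condensin I subunit, had log2 signals of 7.78, 8.03, 8.37 and 8.26 in WT CDPs and of 6.73, 7.06, 6.55 and 6.71 in IkL/L CDPs. In MDPs *Ncapg* had 7.87, 8.16, 7.59 and 8.19 in WT cells and 7.92, 8.18, 7.73 and 7.65 in IkL/L cells. *Ncapg* was thus 2.55-fold lower in IkL/L CDPs (log2 difference -1.35, standard error 0.14, adjusted p = 3.07e-04), and their 4 arrays lay below the other 12. *Ncaph*, the subunit that closes the condensin I ring, had log2 signals of 7.77, 8.55, 8.33 and 8.68 in WT CDPs and of 6.79, 7.36, 6.64 and 7.21 in IkL/L CDPs. In MDPs *Ncaph* had 7.79, 8.45, 7.24 and 8.62 in WT cells and 7.73, 8.07, 7.72 and 7.48 in IkL/L cells. The *Ncaph* values of IkL/L and WT CDPs did not overlap and differed 2.52-fold (log2 difference -1.33, standard error 0.31, adjusted p = 0.034), but array 1 of GSI-treated WT MDPs reached down to the IkL/L CDP values. The highest adjusted p with 1 array left out was 0.11 for *Top2a*, 0.0605 for *Smc2*, 0.165 for *Smc4* and 0.132 for *Ncaph*, and for each of them array 2 of vehicle-treated WT CDPs was among the arrays whose absence lost the call.

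The 3 genes of cytokinesis were lower and held their calls without any 1 array. *Anln*, anillin of the contractile ring, had log2 signals of 8.08, 8.45, 8.78 and 8.37 in WT CDPs and of 6.73, 7.18, 6.60 and 6.65 in IkL/L CDPs. In MDPs *Anln* had 8.12, 8.48, 7.54 and 8.48 in WT cells and 8.24, 8.25, 7.98 and 7.71 in IkL/L cells. For *Anln* the difference from WT CDPs was 3.09-fold (log2 difference -1.63, standard error 0.20, adjusted p = 0.00115), with the 4 IkL/L CDP arrays below every other array. *Ect2*, the exchange factor that activates RhoA at the division plane, had log2 signals of 7.51, 7.94, 8.08 and 8.15 in WT CDPs and of 6.64, 6.82, 6.64 and 6.63 in IkL/L CDPs. In MDPs *Ect2* had 7.57, 8.14, 6.93 and 7.82 in WT cells and 7.83, 7.92, 7.89 and 7.65 in IkL/L cells. *Ect2* was thus 2.36-fold lower in IkL/L CDPs (log2 difference -1.24, standard error 0.19, adjusted p = 0.00373), and their 4 arrays lay below the other 12. *Arhgap19*, a GTPase-activating protein for RhoA (probe set 10467637), had log2 signals of 7.70, 8.01, 8.0 and 7.76 in WT CDPs and of 6.60, 6.58, 6.34 and 6.08 in IkL/L CDPs. In MDPs *Arhgap19* had 8.05, 8.13, 7.80 and 7.77 in WT cells and 7.78, 7.79, 7.80 and 7.52 in IkL/L cells. *Arhgap19* in IkL/L CDPs stayed under the lowest of the other 12 arrays in each array, and the level was 2.77-fold lower than in WT CDPs (log2 difference -1.47, standard error 0.09, adjusted p = 1.43e-05). *Arhgap19* had the lowest adjusted p of the 42 genes and an SD between replicate arrays of 0.168 within CDP groups and 0.103 within MDP groups.

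*Foxm1*, a transcription factor of G2 and mitosis genes, had log2 signals of 7.43, 8.18, 7.98 and 8.14 in WT CDPs and of 6.65, 7.08, 6.34 and 6.66 in IkL/L CDPs. In MDPs *Foxm1* had 7.60, 8.10, 7.38 and 8.06 in WT cells and 7.5, 7.90, 7.64 and 7.07 in IkL/L cells. The *Foxm1* values of IkL/L and WT CDPs did not overlap and differed 2.38-fold (log2 difference -1.25, standard error 0.23, adjusted p = 0.0097), but array 2 of GSI-treated IkL/L MDPs reached down to the IkL/L CDP values. *Mki67*, which encodes the proliferation marker Ki-67, had 8.20, 9.16, 8.81 and 9.44 in WT CDPs and 7.27, 8.21, 7.41 and 7.90 in IkL/L CDPs. In MDPs *Mki67* had 8.22, 9.05, 8.18 and 9.42 in WT cells and 6.75, 8.91, 8.14 and 7.35 in IkL/L cells. Array 2 of vehicle-treated IkL/L CDPs, at 8.21, overlapped the lowest WT CDP array, at 8.20, and the difference of -1.20 (standard error 0.49) did not pass the test (adjusted p = 0.259). Of the 42 genes *Mki67* had the largest SD within MDP groups, 0.968. One spread over all 16 arrays entered every test. Replicates varied more in MDPs than in CDPs for 29 of the 42 genes, among them the 7 without a call in CDPs (SD 0.529 to 0.968 in MDPs) and 22 of the 35 called. The SD in MDPs ran from 0.071 to 0.756 over the 35, so that the ranges overlap, and *Prc1* (0.756) and *Kif4* (0.671) were called. The differences of the 7, from -1.28 to -0.91, lay within the range of the 35 genes called.

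**Figure D3:**
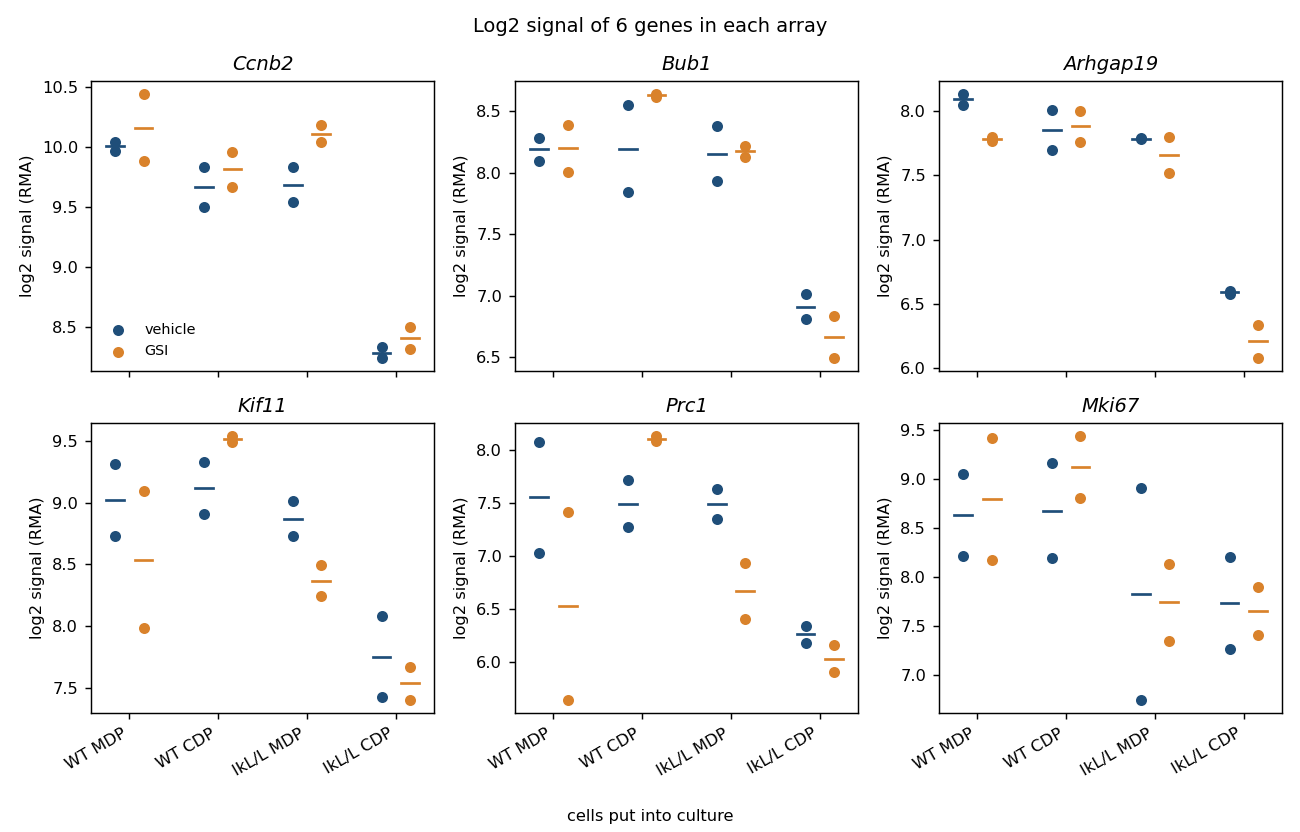
Log2 signal of *Ccnb2*, *Bub1*, *Arhgap19*, *Kif11*, *Prc1* and *Mki67* in each array (points) with the mean of each group of 2 (bars), vehicle in blue and GSI in orange. The IkL/L CDP points of the first 4 genes lie below the WT CDP points by a mean difference of -1.40 to -1.68, array 1 of GSI-treated WT MDPs is low for *Kif11* and *Prc1*, and *Mki67* overlaps.

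In MDPs 0 of the 42 genes differed between IkL/L and WT cells, with vehicle (0.105% of all genes called in either direction), with GSI (0.115%) or over both (0.597%). At an unadjusted p under 0.05 there were 1 with vehicle and 0 with GSI. Over both treatments 32 had a negative and 10 a positive difference, the median was -0.10 against -0.01 for all genes, and 1 gene had an unadjusted p under 0.05 (*Arhgap19*, difference -0.21, adjusted p = 0.56). The 4 IkL/L MDP arrays lay below the 4 WT MDP arrays for 0 genes, against 2.34% of all genes. The lowest difference was that of *Mki67*, -0.93 (standard error 0.49, adjusted p = 0.654), and the highest that of *Spc25*, 0.25 (adjusted p = 0.883). For *Cdc20* it was -0.01, with a 95% confidence interval from -0.38 to 0.37, and for *Bub1b* -0.12, from -0.34 to 0.10. For *Mki67* the interval ran from -2.02 to 0.16, so that a change of the size seen in CDPs lay within it. With vehicle alone the median was -0.13, and it was -0.13 with GSI. Single arrays decided these signs: without array 1 or 2 of vehicle-treated WT MDPs the vehicle median was -0.35 or 0.10, and without array 1 or 2 of GSI-treated WT MDPs the GSI median was -0.44 or 0.11.

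**Figure D4:**
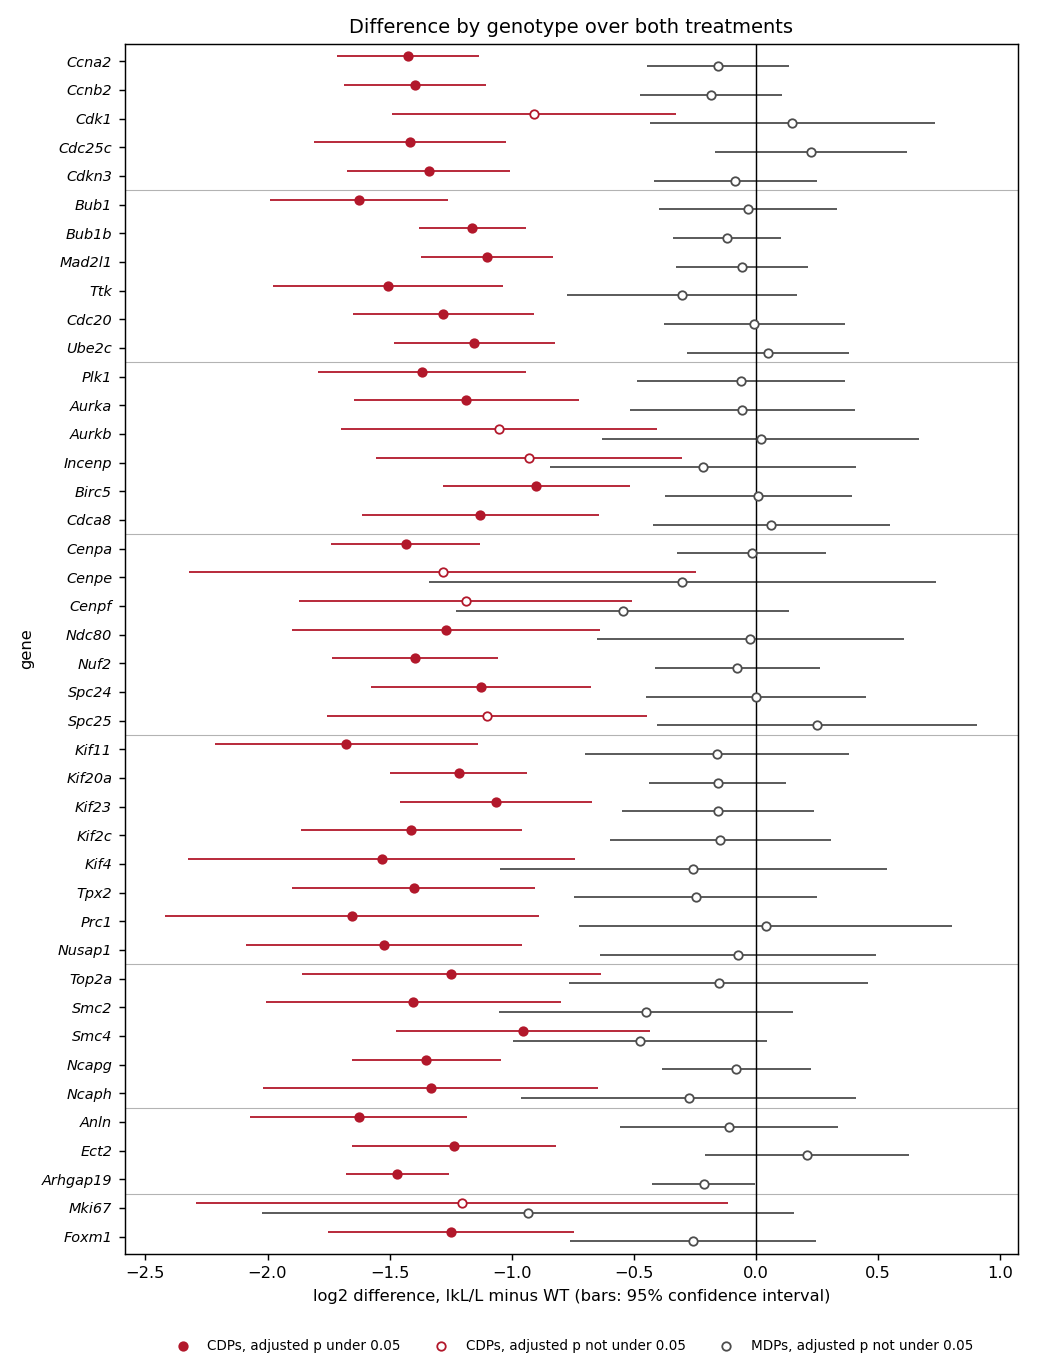
Log2 difference between IkL/L and WT cells over both treatments for each of the 42 genes, in CDPs (red) and MDPs (gray), with 95% confidence intervals from limma. Filled points have an adjusted p under 0.05. The CDP points run from -1.68 to -0.90 and the MDP points from -0.93 to 0.25.

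Whether genotype mattered more in CDPs than in MDPs was tested directly, as the CDP difference minus the MDP difference. This value was negative for all 42 genes, with a median of -1.20 against -0.01 for all genes. It passed the test for 15 of them, where 0.16% of all genes were called lower. The 15 were *Cdc25c* (-1.64, adjusted p = 0.0158), *Bub1* (-1.59, adjusted p = 0.0125), *Ect2* (-1.45, adjusted p = 0.0479), *Cenpa* (-1.42, adjusted p = 0.00936), *Nuf2* (-1.32, adjusted p = 0.0241), *Ncapg* (-1.27, adjusted p = 0.0158), *Ccna2* (-1.27, adjusted p = 0.0127), *Cdc20* (-1.27, adjusted p = 0.0497), *Cdkn3* (-1.26, adjusted p = 0.0289), *Arhgap19* (-1.25, adjusted p = 0.00227), *Ccnb2* (-1.21, adjusted p = 0.0158), *Ube2c* (-1.20, adjusted p = 0.0359), *Kif20a* (-1.06, adjusted p = 0.0289), *Bub1b* (-1.04, adjusted p = 0.00876) and *Mad2l1* (-1.04, adjusted p = 0.0259). They come from 6 of the 8 role groups, and differences as large for *Prc1* (-1.69, standard error 0.49, adjusted p = 0.307) and *Kif11* (-1.52, adjusted p = 0.126) did not pass. The calls of *Bub1*, *Bub1b*, *Cenpa* and *Arhgap19* held without each array in turn. The count of 15 was 5 without either GSI-treated IkL/L MDP array or array 2 of vehicle-treated IkL/L MDPs, 7 without array 1 of vehicle-treated WT MDPs and 8 without array 1 of GSI-treated IkL/L CDPs. It was 9 without either GSI-treated WT CDP array or array 1 of vehicle-treated IkL/L MDPs or CDPs.

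Compared within a genotype, the genes were lower in CDPs than in MDPs only in IkL/L cells, as far as calls go, and the test of the difference between genotypes is the one above. In IkL/L cells 25 of the 42 genes were lower in CDPs (2.87% of all genes called lower), all 42 had a negative difference of CDPs minus MDPs, and the median was -1.03 against -0.02 for all genes. The lowest values were those of *Cenpa* (-1.68, standard error 0.14, adjusted p = 6.98e-05), *Cdkn3* (-1.57, adjusted p = 1.87e-04) and *Ccnb2* (-1.55, adjusted p = 8.44e-05). *Mki67* had -0.09 (adjusted p = 0.97). In WT cells 0 genes were called (0.833% of all genes in either direction), 5 had an unadjusted p under 0.05, 28 had a positive and 14 a negative difference, and the median was 0.20 against -0.01. A call appeared for 1 gene, higher in CDPs, when array 2 of GSI-treated WT MDPs was left out. The 22 to 30 calls in IkL/L cells with each array left out stand beside 0 to 1 in WT cells. Both comparisons share arrays with the comparisons of genotype above and are not independent of them.

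The 2 treatments were then taken apart. With vehicle 12 of the 42 genes were lower in IkL/L CDPs (0.246% of all genes called lower) and the median difference was -1.03. With GSI 26 were lower (0.792% of all genes) and the median was -1.56. All 12 were among the 26: *Ccna2*, *Ccnb2*, *Cdc25c*, *Cdkn3*, *Bub1*, *Bub1b*, *Mad2l1*, *Cenpa*, *Nuf2*, *Kif20a*, *Ncapg* and *Arhgap19*. The other 14 were *Ttk*, *Cdc20*, *Ube2c*, *Plk1*, *Aurka*, *Birc5*, *Kif11*, *Kif23*, *Kif2c*, *Tpx2*, *Nusap1*, *Anln*, *Ect2* and *Foxm1*. *Arhgap19* was 2.41-fold lower with vehicle (adjusted p = 0.0013) and 3.18-fold lower with GSI (adjusted p = 1.56e-04). *Bub1* was 2.43-fold lower with vehicle (adjusted p = 0.029) and 3.92-fold lower with GSI (adjusted p = 0.00172). *Ccnb2* was 2.61-fold lower with vehicle (adjusted p = 0.00467) and 2.65-fold lower with GSI (adjusted p = 0.00336), with folds that differed little. *Kif23* was 1.58-fold lower with vehicle (adjusted p = 0.381) and 2.76-fold lower with GSI (adjusted p = 0.015). The vehicle count of 12 was 1 without array 2 of vehicle-treated WT CDPs, 3 without either vehicle-treated IkL/L CDP array and 7 without either GSI-treated IkL/L MDP array, and only *Arhgap19* held its call throughout. The GSI count of 26 was 12 or 14 without array 1 or 2 of GSI-treated WT CDPs, and 11 or 17 without array 1 or 2 of GSI-treated IkL/L CDPs, and 10 genes held their calls throughout. In a fit of the 4 compared arrays alone, both counts were 0, with 2 residual degrees of freedom.

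The fold was greater with GSI than with vehicle for 41 of the 42 genes, the exception being *Cdkn3*, but the test of this difference called 0 of them (0% of all genes, and 4 of the 42 at an unadjusted p under 0.05). The median of the difference was -0.53, and it ran from -0.81 without array 2 to -0.24 without array 1 of vehicle-treated WT CDPs. GSI itself, against vehicle, was followed by 0 calls among the 42 genes in each of the 4 populations, with 1 gene in each at an unadjusted p under 0.05. In WT CDPs 41 were higher with GSI, with a median of 0.35 (0.01% of all genes called), and array 1 of the vehicle group, the lowest for every gene, entered this value. Without it the median was 0.08, and without array 2 it was 0.61. *Cenpf* had the highest value, 0.88 (standard error 0.44, adjusted p = 0.999), from 5.73 and 6.24 with vehicle to 6.97 and 6.76 with GSI. In IkL/L CDPs 37 of the 42 were lower with GSI, with a median of -0.17 (0.00502% of all genes called). *Kif23* had the lowest value, -0.51 (standard error 0.25, adjusted p = 1). The medians were -0.15 in WT MDPs and -0.16 in IkL/L MDPs (0% of all genes called in each), and that of WT MDPs turned to 0.11 without array 1 of the GSI group or array 2 of the vehicle group. Averaged over the 4 populations the median was -0.04, with 0 genes called (0.306% of all genes) and 2 at an unadjusted p under 0.05. In most groups of 2 the genes differed between replicates in the same direction: array 2 was the higher for 42 of 42 genes in vehicle-treated WT CDPs, 41 in vehicle-treated WT MDPs and 39 in GSI-treated IkL/L CDPs, but for 6 in GSI-treated IkL/L MDPs. The SD between replicate arrays of the median over the 42 genes was 0.29, so that the GSI medians in each population were of that order or smaller, and those of genotype in CDPs several times larger.

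Other genes of the cell cycle were read in the same comparison of IkL/L with WT CDPs over both treatments. Of all genes tested, 1.92% were called lower there and 3.21% higher. Of 88 further mitosis genes 59 were lower and 0 higher, with a median of -0.99, and 0 were called in MDPs. The largest differences were those of the kinetochore scaffold *Knl1* (-1.89, adjusted p = 0.00182), the cohesin protector *Sgo2a* (-1.77, adjusted p = 0.00206), the spindle kinesin *Kif15* (-1.70, adjusted p = 0.00301) and *Hmmr* (-1.68, adjusted p = 0.00198). Of 49 genes of DNA replication and G1/S 10 were lower and 0 higher, with a median of -0.59, less than that of the mitosis genes, though the difference between lists was not tested. The 4 largest were *Rrm2* of ribonucleotide reductase (-1.05, adjusted p = 0.0379), the repressor *E2f8* (-1.05, adjusted p = 0.0452), cyclin E1 (*Ccne1*, -0.99, adjusted p = 0.0221) and *E2f2* (-0.96, adjusted p = 0.0114). Among 20 genes of CDK inhibitors, pocket proteins and the MuvB core 5 were lower and 1 higher. *Cdkn2c*, which encodes the CDK4 and CDK6 inhibitor p18, was lower (-1.59, adjusted p = 0.00201), as were *Lin9* of MuvB (-0.92, adjusted p = 8.41e-05) and *Cdkn2d* (-0.77, adjusted p = 0.0459), and the antiproliferative gene *Btg1* was higher (0.99, adjusted p = 0.00544).

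Most markers of mature DCs and late neutrophils were higher in IkL/L CDPs, opposite in sign to the mitosis genes. Of 11 mature DC genes 9 were higher in IkL/L than WT CDPs, where 3.21% of all genes tested were called higher, and the median over the list ran from 8.10 to 8.51 in the IkL/L CDP arrays, from 5.47 to 6.08 in WT CDPs and from 4.79 to 5.67 in MDPs. *Fscn1*, of mature DCs, ran from 9.11 to 9.88 in IkL/L CDPs and from 4.76 to 5.80 in WT CDPs. Of 12 late neutrophil genes 10 were higher, with list medians of 10.56 to 11.52 in IkL/L CDPs and 7.69 to 8.91 in WT CDPs, and *Ltf* (lactoferrin) had the largest difference (4.17, adjusted p = 1.46e-04). In MDPs the list medians were 11.16 to 11.43 in IkL/L cells and 7.66 to 9.01 in WT cells. There 4 of the 12 genes were higher, where 0.597% of all genes were called in either direction. The median difference over the list was 1.13 in MDPs and 2.64 in CDPs. Early neutrophil granule genes, of which 0 of 7 were called, had medians from 5.96 to 7.24 in IkL/L CDPs and from 5.61 to 9.60 in WT CDPs, the highest in array 2 of the vehicle group. The *Mpo* signal was 11.67 in that array and no higher than 8.17 in the other WT CDP arrays. In MDPs *Mpo* ran from 11.98 to 12.25 in WT cells and from 11.37 to 12.31 in IkL/L cells. In vehicle-treated CDPs the median difference of the mitosis genes was -0.785 without array 2 of the WT group and -1.352 without its array 1. A link between the 2 observations was not tested. Of 8 mast cell and basophil genes 3 were higher, led by *Prss34* (2.79, adjusted p = 0.0236), and of 6 T and NK cell genes 1 (*Cd8a*, 0.62, adjusted p = 0.0188). The study also names a CD8+ subset of DCs, so *Cd8a* does not mark T and NK cells alone. Monocyte and macrophage genes (8), erythroid genes (7), B cell genes (6) and stress response genes (6) had 0 calls, with 5 genes at an unadjusted p under 0.05. *Klf1* of erythroid cells and *Cd79a* of B cells stayed between 3.45 and 4.62 in all arrays, below the array medians or near them. The erythroid genes *Epor* and *Alas2* ran higher than *Klf1*, from 3.87 to 4.49 and from 4.25 to 4.98. The part of these cell types in the lower signal of the mitosis genes was not tested.

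**Figure D5:**
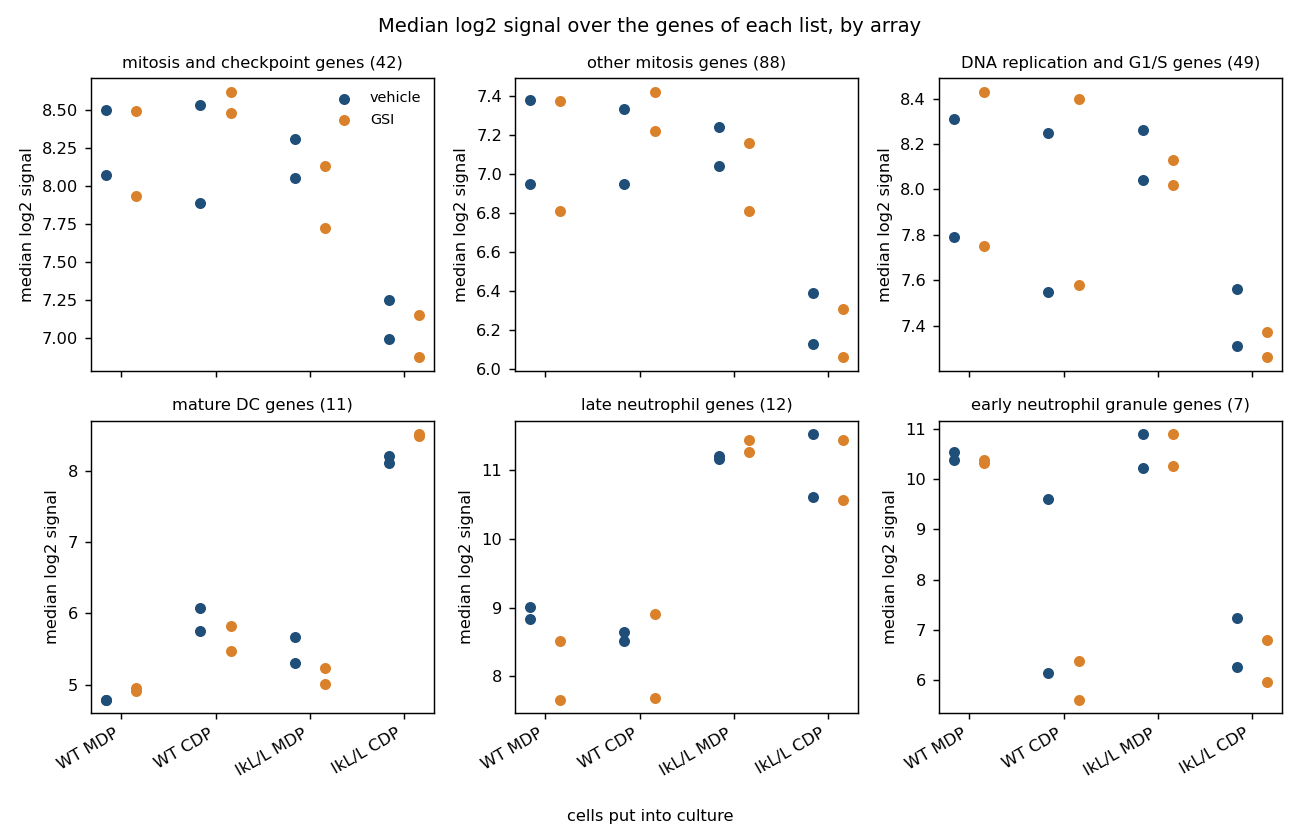
Median log2 signal over the genes of 6 lists in each array (points), by cells put into culture, vehicle in blue and GSI in orange, with the number of genes in parentheses. The mitosis genes are low and the mature DC genes high in the 4 IkL/L CDP arrays alone, while the late neutrophil genes are high in IkL/L MDPs and CDPs. The vertical axes do not start at 0.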

How the data were processed

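RNA of 16 samples, 2 per group, was hybridised to Affymetrix Mouse Gene ST 1.0 arrays after amplification of nanogram amounts. Amplification may distort levels, and the amounts used were not compared between groups. The deposited log2 values were made by the authors with RMA in Affymetrix Expression Console 1.4.1 and were used without further normalization. Of 28188 probe sets, 21789 carried 1 gene symbol in the platform annotation, 1621 several and 4778 none, and the probe set with the highest mean was kept per symbol, giving 19938 genes (1 of the 42 measured mitosis genes had several). Groups were taken from the sample labels. A linear model of 8 group means was fitted to all arrays with limma 3.58.1 in R 4.3.3 (8 residual and 2.35 prior degrees of freedom), and 15 contrasts were tested two-sided. The script was tested on simulated data. Values in every array are given for each mitosis gene called in any comparison and for the gene of largest difference in each role group, and up to 4 called genes are named from each other list. The 43 genes and the other lists were chosen with earlier results of these data known. The study's legends give 2 mice per condition, and nothing in the labels ties a replicate number to a mouse, culture or day. Deviations from group means of same-numbered arrays correlated from -0.254 to 0.658 over 28 pairs of groups, with a median of 0.143 and 17 above 0.1. As not every pair was above 0.1, the numbers were not taken to pair arrays, but this rule cannot exclude pairing. Arrays of different groups may come from the same mice, and the main fit treats them as independent. Scan dates were not used here. The number of arrays limits the precision. Alternatives were a replicate block, a fit of the compared arrays alone, a filter on low signals, equal array medians, quantile normalization, eBayes with trend and robust settings, the mean over probe sets, and each array left out. Motifs were counted in the RefSeq promoter table (GRCm38.p6), and 9 measured genes had no entry.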

Additional observations from a re-analysis of the deposited data

Results flagged for a closer look

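For 15 mitosis genes the difference between IkL/L and WT cells was itself different in CDPs and MDPs by the limma test of that difference (adjusted p from 0.00227 for *Arhgap19* to 0.0497 for *Cdc20*). In log2 units, CDPs minus MDPs, it was -1.64 for *Cdc25c*, -1.59 for *Bub1*, -1.45 for *Ect2*, -1.42 for *Cenpa*, -1.32 for *Nuf2*, -1.27 for *Cdc20*, -1.27 for *Ncapg* and -1.27 for *Ccna2*. It was -1.26 for *Cdkn3*, -1.25 for *Arhgap19*, -1.21 for *Ccnb2*, -1.20 for *Ube2c*, -1.06 for *Kif20a*, -1.04 for *Bub1b* and -1.04 for *Mad2l1*. In each of the 15 the 4 IkL/L CDP arrays lay below the other 12. They did so for 25 of the 42 genes and for 2.08% of all genes. The test that picked the 15 used these same arrays, so this adds no support to it. No gene had an outlying array to report, since groups of 2 cannot be tested for one.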

How the results depend on the processing

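No difference of a mitosis gene that passed the test changed sign under any alternative tried. The 35 genes lower in IkL/L CDPs over both treatments numbered 34 to 40 under the 7 alternatives that kept all arrays compared, and 26 to 39 with each array left out. With vehicle alone the 12 genes became 19 with a replicate block and 0 in a fit of the compared arrays alone, and 1 to 14 with an array left out. With GSI the 26 became 0 in a fit of the compared arrays alone, 36 with the replicate block, and 11 to 32 with an array left out. The difference between CDPs and MDPs was called for 5 to 17 genes with an array left out, and the CDP to MDP difference in WT cells for 0 to 1. With an array left out the median over the 42 genes ran from -1.352 to -0.785 for genotype in vehicle-treated CDPs, from -0.439 to 0.11 for genotype in GSI-treated MDPs, from -0.494 to 0.11 for GSI in WT MDPs, and from -0.807 to -0.24 for the GSI dependence in CDPs. The cause was not tested, except that a fit of 4 arrays leaves 2 residual degrees of freedom. With the replicate number as a block the count over both treatments in CDPs was 40: *Cdk1*, *Aurkb*, *Incenp*, *Cenpf* and *Spc25* passed the test (adjusted p from 0.0269 to 0.0347), and *Cenpe* (0.0537) and *Mki67* (0.0788) did not. The numbers have no stated source, but array 2 had the higher values over the mitosis genes in 7 of 8 groups. Only 2 arrays per group were available, so single arrays weigh heavily in the counts by treatment, and the RMA values used here come without a detection call, so signal over background is not given.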
